A study of Mus musculus with 12 samples.

Results

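The genes of fatty acid oxidation and acyl-CoA handling are described here in astrocytes of mice with 2, 1 or no working copies of Cd38. The paper calls these cells midbrain astrocytes. The 37 genes were taken by symbol from the 20614 genes of the expression table, as genes whose products act in this pathway. They cover the acyl-CoA synthetases, the carnitine shuttle, the mitochondrial and peroxisomal oxidation enzymes, the electron transfer proteins, a pair of thioesterases, a pair of fatty acid binding proteins and the receptors Ppara and Ppard. Cd38 encodes an ectoenzyme that breaks down NAD, the cofactor that 3-hydroxyacyl-CoA dehydrogenases reduce.

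The 12 libraries came from male mice of 12 to 14 months (mean 13.5 months): 3 Cd38+/+, 3 Cd38+/- and 6 Cd38-/-. The null allele is a germline disruption (B6.129P2-Cd38tm1Lnd/J) carried by every cell of the animal. All mice were bred from C57BL/6J, per the paper, and no treatment is described. Whether the genotypes carry the same DNA around Cd38 on chromosome 5 is not stated. Striatum, thalamus and substantia nigra were dissected together, endothelial, myelin-bearing and CD11b+ cells were taken out with magnetic beads, and astrocytes were then bound through ACSA-2, a surface epitope of ATP1B2. Expression was deposited as TPM (a transcript abundance scaled to the library total), which corrects for transcript length and sums to the same total in each library, so read depth is unknown and no counting error can be given.

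Fatty acids are first joined to coenzyme A by acyl-CoA synthetases. Long acyl chains enter mitochondria on carnitine, through CPT1, the carrier SLC25A20 and CPT2, and are then shortened in cycles of dehydrogenation, hydration, a second dehydrogenation and thiolysis, while very long and branched chains begin in peroxisomes. In the brain this pathway is thought to run mainly in astrocytes.

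Cd38 itself was read first. Its TPM was 148.64, 120.04 and 104.88 in the Cd38+/+ libraries, 90.80, 90.70 and 90.36 in the Cd38+/- libraries, and 8.54 to 21.86 (median 15.7) in the Cd38-/- libraries. The 3 genotypes did not overlap, in the order of gene dose (limma log2 fold change -2.96 in Cd38-/- against Cd38+/+, q = 0.00116). Cd38+/- differed from Cd38+/+ by -0.44, which was not called (limma q = 0.226).

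The libraries were not alike in the number of genes detected or in marker levels. Between 13160 and 13516 genes were above 0 TPM in Cd38+/+, against 16160 to 16327 in Cd38+/- and 15920 to 17906 in Cd38-/-. The 9 astrocyte markers summed to 6930 to 9300 TPM in Cd38+/+, 11900 to 12400 in Cd38+/- and 7690 to 11000 in Cd38-/-, with none at 0. Of these, 2 were called higher in Cd38-/- than in Cd38+/+: Gfap, with 236.13 to 370.78 TPM in Cd38+/+ and 405.77 to 722.74 in Cd38-/-, and Aqp4, with 368.79 to 558.21 and 631.28 to 906.12. Oligodendrocyte markers summed to 1300 to 17800 TPM over all 12 libraries and erythroid markers to 1730 to 18500, with the highest erythroid value in Cd38+/+. The 4 choroid plexus markers summed to 45.6 to 300 TPM in Cd38+/+, 187 to 7040 in Cd38+/- and 212 to 1870 in Cd38-/-, and 3 of them were DEGs, higher in Cd38-/- than in Cd38+/+. Ependymal markers summed to 2910 to 5690, 3010 to 3500 and 3820 to 6000 TPM. Neuronal markers stayed at 37.9 to 135 TPM and microglial markers at 110 to 183, with Th, Cx3cr1 and Tmem119 listed at 0 in all Cd38+/+ libraries. In such bulk samples, fewer cells of a type and less RNA per cell cannot be told apart.

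All 37 genes were above 0 TPM in every library, and their levels spanned a wide range. Averaged over the 12 libraries, 21 were at 100 TPM or more, 13 lay between 10 and 100, and 3 were below 10. The 3 most abundant were the synthetases Acsl3 (1057 TPM), Acsbg1 (975 TPM) and Acsl6 (831 TPM), and the least abundant was Ppard (2.20 TPM). Summed over all 37 genes, TPM was 6450 to 8000 in Cd38+/+, 7960 to 9020 in Cd38+/- and 7080 to 8160 in Cd38-/-.

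**Figure D1:**
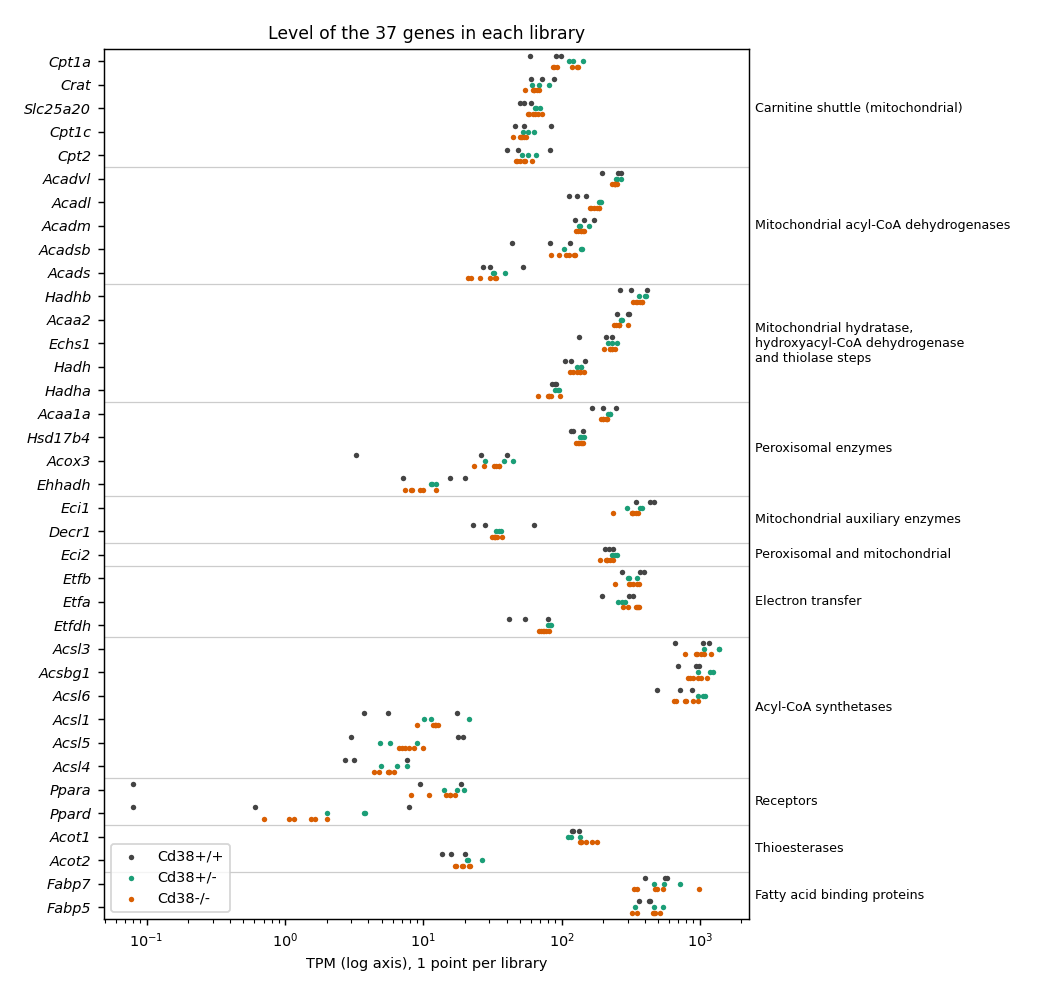
TPM of each of the 37 genes (log axis) in each library, 1 point per library, grouped by role and coloured by genotype. Acsl3, Acsbg1 and Acsl6 are the most abundant, and the grey Cd38+/+ points are often the most widely spaced, as for Ppara (0.08 to 18.66 TPM) and Acox3 (3.25 to 40.36 TPM).

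The genes varied most between Cd38+/+ libraries. The median SD of log2(TPM + 1) over the 37 genes was 0.33 for Cd38+/+, 0.132 for Cd38+/- and 0.153 for Cd38-/-, against 0.494, 0.2 and 0.234 over 11845 expressed genes. In 34 of the 37 the SD was larger in Cd38+/+ than in Cd38+/-, and in 32 it was larger than in Cd38-/-. The lowest of the 12 values was in a Cd38+/+ library for 26 of the genes, 11 of them in replicate 2 and 11 in replicate 3. The highest was in a Cd38+/+ library for 16 and in a Cd38+/- library for another 16. Any comparison with Cd38+/+ thus rests on 3 libraries that disagree with each other on many of these genes.

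Mean log2(TPM + 1) of all 37 genes was 6.60, 6.35 and 6.37 in the Cd38+/+ libraries, 6.72, 6.67 and 6.71 in the Cd38+/- libraries, and 6.45 to 6.64 in the Cd38-/- libraries. Every Cd38+/- library lay above every library of the other genotypes, and Cd38+/+ and Cd38-/- overlapped. The Cd38+/- mean exceeded that of Cd38+/+ by 0.26 and that of Cd38-/- by 0.15 on the log2 scale. The first was 0.12 with median-ratio scaling and 0.0388 without the trend on length and GC content. With the median level over the genes of each library in place of the mean, Cd38-/- and Cd38+/- differed by 0.00096. That value follows only the middle of the 37 levels, and the median of the single-gene differences was -0.14. The mean of Cd38-/- exceeded that of Cd38+/+ by 0.11, about the spread between libraries (pooled SD 0.0937), and was -0.0043 with median-ratio scaling and to -0.11 after removal of the dependence on transcript length and GC content within each library. These scores were described without a test.

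**Figure D2:**
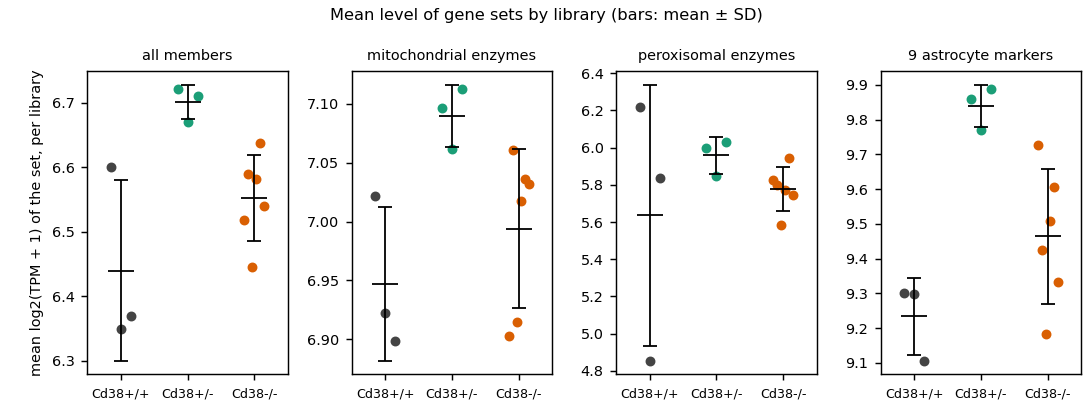
Mean log2(TPM + 1) per library (points) of all 37 genes, the 18 mitochondrial enzymes, the 4 peroxisomal enzymes and the 9 astrocyte markers, by genotype, with mean ± SD as bars. The y axes differ between panels and do not start at 0. The 3 Cd38+/- libraries are highest for all genes, for the mitochondrial enzymes and for the astrocyte markers.

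The same order was seen in the astrocyte markers. Their mean log2(TPM + 1) was 9.11 to 9.30 in Cd38+/+, 9.77 to 9.89 in Cd38+/- and 9.18 to 9.73 in Cd38-/-. Relative to these markers in the same library, the mean of the 37 genes was 0.34 lower in Cd38+/- than in Cd38+/+, and 0.23 higher in Cd38-/- than in Cd38+/-. The 9 markers include Gfap and Aqp4, which were called higher in Cd38-/- than in Cd38+/+. Against Cd38+/+, marker log2 fold changes ran from -0.21 to 1.39 in Cd38+/- (median 0.51) and from -0.38 to 1.00 in Cd38-/- (median 0.20). Differences relative to them thus depend on the markers taken, and no other choice was tried. The part that astrocyte purity or state had in the differences between genotypes was not tested.

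Single genes were compared with limma on log2(TPM + 1) over all genes whose mean TPM exceeded 5 in one or both genotypes compared. A gene was called a DEG at a Storey q under 0.05 together with a change of 1.2-fold or more. Ppard, at 2.20 TPM, was below this limit, which left 36 of the 37 in each comparison. Both mutant genotypes are set against the same 3 Cd38+/+ libraries, so these comparisons are not independent of each other.

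In Cd38+/- against Cd38+/+, none of the 36 was a DEG, as for all 11763 genes tested (0%). The paper, which does not name its model, reports DEGs in both comparisons with Cd38+/+. At an unadjusted p under 0.05, 4 of the 36 were higher in Cd38+/- and 0 lower, where 9.5% of all genes were higher and 3.99% lower. The 4 were Acadsb, Cpt1a, Acsl6 and Acadl. The libraries did not overlap for 5 genes, all higher in Cd38+/- (15.5% of all genes higher, 6.94% lower). The median log2 fold change was 0.14, against 0.18 over all genes tested. Of the 36 values, 26 were above 0 and 27.8% were negative, where 35.6% of all genes were negative. With median-ratio scaling 18 of the 36 were negative (46.6% of all genes). With the trend on length and GC content removed 20 were (54.5% of all genes), so this direction depended on the scaling.

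Between Cd38-/- and Cd38+/+, 1 of the 36 was a DEG, Acadl, against 8.28% of all 11722 genes. At an unadjusted p under 0.05, 2 were higher (17.6% of all genes) and 1 lower (5.99%). Acadl and Acot1 were the 2 genes whose libraries did not overlap, both higher in Cd38-/- (8.21% of all genes higher, 3.62% lower). The median log2 fold change was 0.083, against 0.15 over all genes. Its sign turned to -0.04 with median-ratio scaling (20 of 36 negative), to -0.12 without the trend on length and GC content (25 negative) and to -0.02 without Cd38+/+ replicate 3 (19 negative). Over all genes 35.7% were negative in the main fit, and 46.7%, 56.5% and 38.8% in these fits in turn. The DEG made up 2.78% of the 36. Over all genes, 77.5% of the DEGs were higher in Cd38-/-, which became 59.2% with median-ratio scaling and 32.4% with the trend on length and GC content removed.

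Between Cd38-/- and Cd38+/-, a comparison that leaves out the Cd38+/+ libraries, none of the 36 was a DEG (0.0346% of all 11563 genes). Of the 36 log2 fold changes, 33 were negative (91.7%), where 54.6% of all genes were. Of 72 other genes of fatty acid metabolism, read further below, 44 were negative (61.1%, median -0.03). The median of the 36 was -0.14, against -0.02 over all genes, and the values ran from -0.40 to 0.32. The 3 above 0 were Acot1, Etfa and Acsl5. Between 30 and 33 were negative when any single library was left out, 33 with median-ratio scaling and 32 without the trend on length and GC content. At an unadjusted p under 0.05, 2 were higher (6.24% of all genes) and 2 lower (5%). The libraries did not overlap for 3 genes, Acadl, Acaa1a and Acsl6, all lower in Cd38-/- (2.88%), and for none that was higher (2.85%). The 9 astrocyte markers were lower in Cd38-/- as well, with a median log2 fold change of -0.35. In the same comparison all 5 ependymal markers were above 0 (median 0.67), 4 of them at an unadjusted p under 0.05 and without overlap, as were all 6 endothelial markers (median 0.39, 0 at that p). The part of these cell types in the pattern was not tested.

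**Figure D3:**
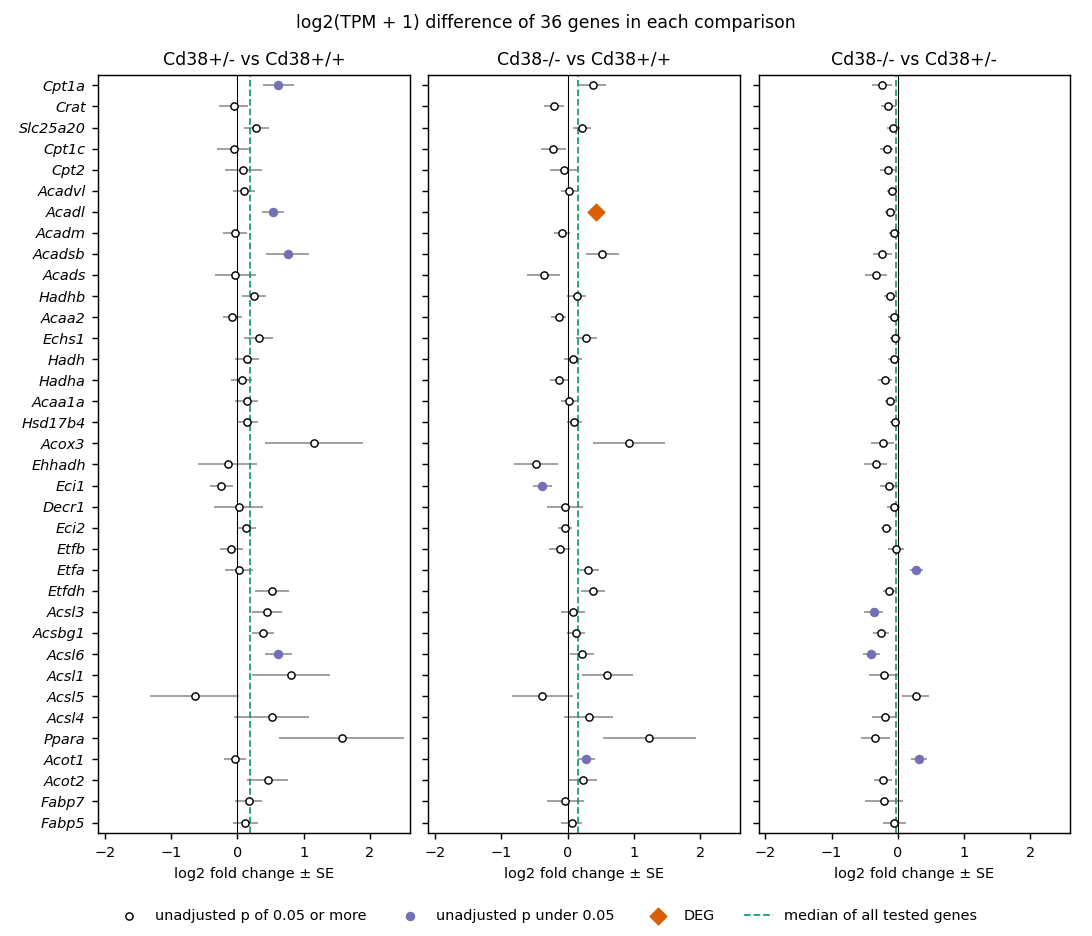
Log2 fold change with its SE (limma, log2(TPM + 1) scale) of the 36 tested genes in each comparison, in the order of the plot of levels, with the median of all tested genes as a dashed line. Acadl in Cd38-/- against Cd38+/+ is the single DEG, and in the right panel 33 of 36 points lie left of 0.

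**Figure D4:**
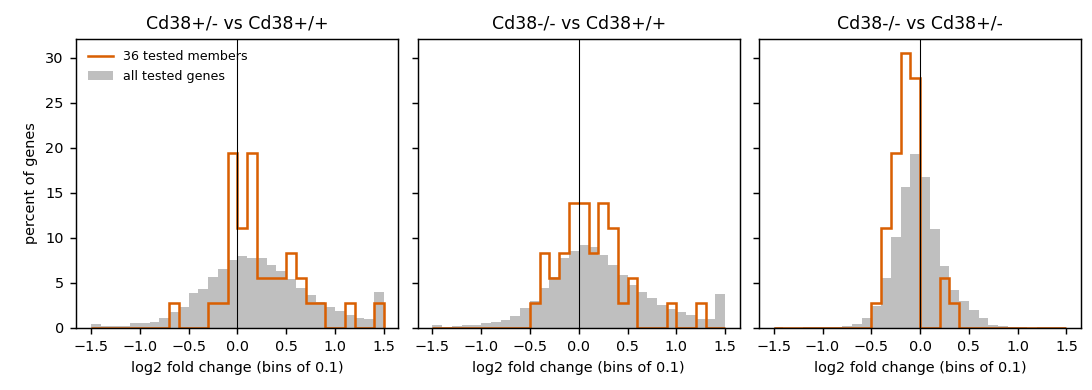
Percent of all tested genes (grey bars) and of the 36 tested genes of the pathway (orange outline) by log2 fold change in bins of 0.1, where the outermost bins also hold values beyond 1.5. In the right panel, Cd38-/- against Cd38+/-, the outline lies left of 0 for all but 3 of the genes, while the bars are centred near 0.

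Of the acyl-CoA dehydrogenases, which take the first step of each mitochondrial cycle, Acadl changed in Cd38-/-. It encodes the long-chain enzyme (ENSMUSG00000026003, chromosome 1 from 66830839 to 66863277, GRCm38). Its TPM was 150.75, 113.18 and 128.35 in Cd38+/+, 186.28, 189.63 and 192.14 in Cd38+/-, and 161.89 to 186.12 (median 176) in Cd38-/-. Every library of either mutant genotype was above every Cd38+/+ library, and the Cd38-/- libraries were all below the Cd38+/- libraries.

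Acadl rose in Cd38-/- by 0.42 on the log2 scale (SE 0.121, limma q = 0.0418; two-sided exact permutation test, p = 0.0119, the smallest possible with 6 against 3). The corresponding value of Acadl in Cd38+/- was 0.54, with a limma q of 0.178. Between the mutant genotypes it was -0.12 (limma q = 0.449; exact permutation p = 0.0357). Its q in Cd38-/- was close to the threshold, and the call was lost in 7 of 9 fits on 1 library fewer: when Cd38+/+ replicate 2 was removed, and when any single Cd38-/- library was (highest q 0.101). It was also lost with Benjamini-Hochberg adjustment (q = 0.0738), and without the trend on length and GC content the log2 fold change was 0.17 (q = 0.210).

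The sequence before the start of Acadl is given because Acadl is the one gene called. From RefSeq, the 250 bases upstream of its start (GRCm38, chr1:66863310-66863559, minus strand) are 68% G or C and hold neither motif searched below, with no capitals used.
Acadl: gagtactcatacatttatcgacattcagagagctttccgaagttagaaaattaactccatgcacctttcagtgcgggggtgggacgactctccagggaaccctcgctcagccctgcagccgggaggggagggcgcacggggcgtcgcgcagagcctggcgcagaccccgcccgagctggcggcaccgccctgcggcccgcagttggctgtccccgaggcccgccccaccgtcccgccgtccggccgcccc

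Acadvl, for the very-long-chain enzyme and the most abundant of the 5 dehydrogenases, had 257.93, 271.43 and 195.30 TPM in Cd38+/+, 270.00, 247.43 and 253.84 in Cd38+/-, and 230.18 to 252.51 (median 243) in Cd38-/-. Its genotypes overlapped, with log2 fold changes of 0.10 in Cd38+/- and 0.02 in Cd38-/-. Acadm, for the medium-chain enzyme, ranged from 124.59 to 171.05 TPM over the 12 libraries with no order of genotypes, and Acads, for the short-chain enzyme, from 20.96 to 52.71 TPM. Acadsb acts on short branched chains from isoleucine. It had 114.74, 82.16 and 43.55 TPM in Cd38+/+, 103.56 to 140.31 in Cd38+/- and 84.30 to 124.23 in Cd38-/-. In Cd38+/- the Acadsb difference was 0.76 on the log2 scale with an SE of 0.329 (limma q = 0.231), and the lowest Cd38+/+ library, at 43.55 TPM, was far below the other two. Of the 5 genes, Acadl was thus the only one called in any comparison.

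**Figure D5:**
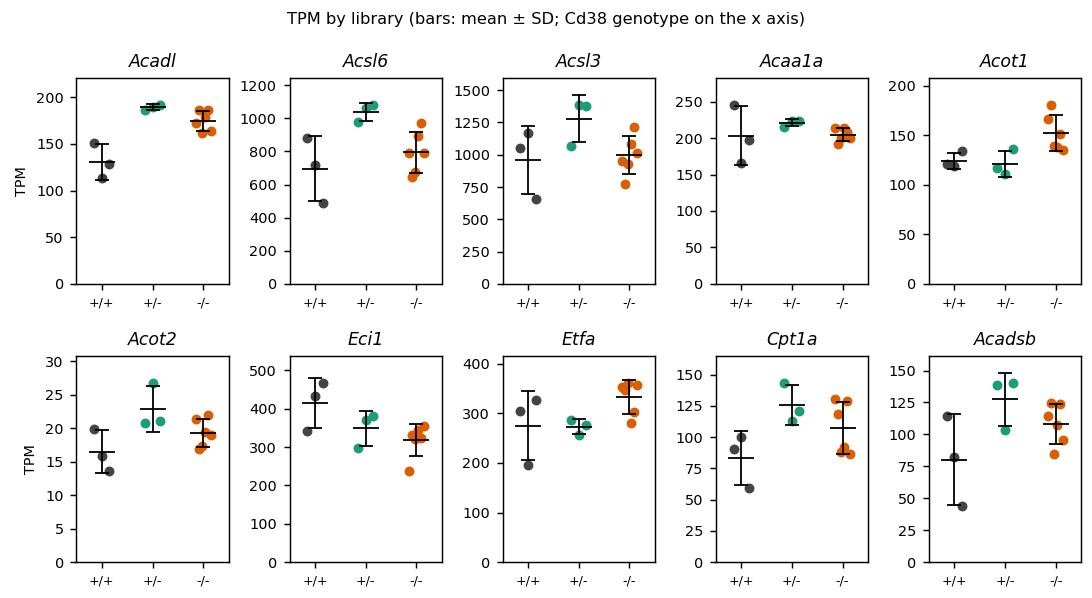
TPM per library (points) of 10 of the genes by Cd38 genotype, with mean ± SD as bars and every y axis starting at 0. Acadl is lowest in the 3 Cd38+/+ libraries, Acsl6 and Acaa1a are lower in all 6 Cd38-/- than in the 3 Cd38+/- libraries, and Acot1 is lower in all 3 Cd38+/+ than in the 6 Cd38-/- libraries.

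In the carnitine shuttle, Cpt1a and Slc25a20 were the genes with separate libraries. Cpt1a, for the outer-membrane transferase that limits the entry of long chains (ENSMUSG00000024900, chromosome 19 from 3322334 to 3385733), had 90.64, 99.94 and 59.25 TPM in Cd38+/+, 143.48, 113.04 and 121.17 in Cd38+/-, and 86.92 to 130.76 (median 106) in Cd38-/-. All Cd38+/- libraries were above the Cd38+/+ libraries, with a log2 fold change of 0.62 (SE 0.230, limma q = 0.206), while Cd38-/- overlapped with both. Slc25a20, the carrier of acylcarnitine through the inner membrane (ENSMUSG00000032602, chromosome 9 from 108662088 to 108684641), had 60.64, 50.04 and 53.31 TPM in Cd38+/+, 64.68, 65.17 and 69.99 in Cd38+/-, and 56.78 to 71.85 (median 63.5) in Cd38-/-. Against Cd38+/+ it differed by 0.28 on the log2 scale in Cd38+/- and by 0.22 in Cd38-/-, and neither passed (limma q = 0.330 and 0.211). Over 19 alternative fits the difference in Cd38+/- ran from 0.03 to 0.36.

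Cpt1c, a brain form of the transferase found in the endoplasmic reticulum, lay between 44.37 and 83.83 TPM. The ratio of Cpt1a to Cpt1c was 1.08 to 1.88 in Cd38+/+, 1.93 to 2.52 in Cd38+/- and 1.58 to 2.58 in Cd38-/-. Cpt2, the inner-membrane transferase, ran from 40.58 to 81.86 TPM, with both of these values in Cd38+/+, and Crat, the carnitine acetyltransferase, from 54.11 to 88.12 TPM. No shuttle gene was a DEG, and all 5 had a negative log2 fold change in Cd38-/- against Cd38+/- (-0.24 to -0.07).

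The hydratase, 3-hydroxyacyl-CoA dehydrogenase and thiolase steps showed no call in any comparison. Hadhb, for the thiolase subunit of the trifunctional protein, had 416.75, 318.98 and 263.98 TPM in Cd38+/+, 361.44, 404.81 and 405.31 in Cd38+/-, and 327.36 to 381.13 (median 362) in Cd38-/-. Hadha, for the other subunit, which carries the hydratase and long-chain dehydrogenase, had 67.98 to 97.05 TPM in all. The proteins are partners in 1 complex, yet TPM of Hadhb exceeded that of Hadha by 3.07 to 4.55 times in Cd38+/+, 3.79 to 4.48 times in Cd38+/- and 3.91 to 5.10 times in Cd38-/-. Annotated forms of unequal length enter such a ratio of TPM.

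Hadha and Hadhb lie head to head on chromosome 5, Hadha on the minus strand up to 30155162 and Hadhb on the plus strand from 30155248. The 85 bases between them are shown because both genes start outward from this short G- and C-rich stretch (69.4%), given on the plus strand of chr5:30155163-30155247 (GRCm38, RefSeq promoter window of Hadhb) with no capitals used.
Hadha-Hadhb: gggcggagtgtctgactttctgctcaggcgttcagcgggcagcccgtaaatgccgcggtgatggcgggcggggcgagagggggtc

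They lie 13.7 Mb from Cd38 on the same chromosome, Acox3 lies 8.25 Mb and Acads 71.2 Mb from it. None of these 4 was a DEG in any comparison. Hadha had log2 fold changes of 0.06 in Cd38+/- and -0.13 in Cd38-/- against Cd38+/+, and Hadhb of 0.25 and 0.13, none past the threshold.

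Acaa2, the mitochondrial thiolase for medium chains (238.76 to 306.13 TPM), Echs1, the short-chain enoyl-CoA hydratase (132.82 to 250.61 TPM), and Hadh, the short-chain 3-hydroxyacyl-CoA dehydrogenase that uses NAD (105.78 to 146.64 TPM), overlapped between genotypes. The lowest Echs1 value was that of Cd38+/+ replicate 2. Over these 5 genes the log2 fold changes in Cd38-/- against Cd38+/+ ran from -0.13 to 0.28, and 0 had an unadjusted p under 0.05.

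The auxiliary enzymes act on unsaturated chains. Eci1, the mitochondrial enoyl-CoA isomerase (ENSMUSG00000024132, chromosome 17 from 24426641 to 24439348), had 342.82, 434.30 and 467.39 TPM in Cd38+/+, 297.26, 369.61 and 380.75 in Cd38+/-, and 237.10 to 354.47 (median 327) in Cd38-/-. Only the lowest Cd38+/+ library reached into the Cd38-/- range. Eci1 differed by -0.38 on the log2 scale between Cd38-/- and Cd38+/+ (SE 0.147, limma q = 0.0839; two-sided exact permutation test, p = 0.0357), which is not past the threshold. It was a DEG without Cd38+/+ replicate 1, the library that overlapped, and with the trend on length and GC content removed. Cd38-/- replicate 1, at 237.10 TPM, stood apart from the other Cd38-/- libraries (321.22 to 354.47).

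Decr1, the dienoyl-CoA reductase, had 23.00, 63.70 and 28.05 TPM in Cd38+/+ and 31.50 to 37.25 in the other 9 libraries, so that 1 Cd38+/+ library lay far above all others. Eci2, an isomerase of peroxisomes and mitochondria that was kept out of both compartment means, had 234.11, 205.48 and 219.57 TPM in Cd38+/+, 230.17, 243.34 and 250.33 in Cd38+/-, and 189.86 to 235.69 (median 214) in Cd38-/-. Its largest difference was -0.17 in Cd38-/- against Cd38+/- (limma q = 0.351).

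Electrons from the dehydrogenases pass through ETF, a dimer of the Etfa and Etfb products, to the ETF dehydrogenase encoded by Etfdh. Etfb had 395.45, 372.14 and 273.99 TPM in Cd38+/+, 304.71, 352.49 and 307.62 in Cd38+/-, and 241.63 to 361.98 (median 321) in Cd38-/-. Etfa had 305.16, 195.35 and 326.26 TPM in Cd38+/+, 287.52, 257.45 and 275.83 in Cd38+/-, and 279.74 to 361.64 (median 350) in Cd38-/-. Etfa was 1 of the 3 genes with a positive value in Cd38-/- against Cd38+/- (log2 fold change 0.28, limma q = 0.260), and 1 Cd38-/- library reached the Cd38+/- range.

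Etfdh had 80.38, 42.01 and 54.24 TPM in Cd38+/+, 79.41 to 83.72 in Cd38+/- and 69.05 to 81.66 in Cd38-/-. Against Cd38+/+ the log2 differences of Etfdh were 0.52 for Cd38+/- and 0.38 for Cd38-/- (limma q = 0.250 and 0.129). Cd38+/+ replicate 1 lay inside the range of the mutant libraries, and replicates 2 and 3 lay below it.

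Among the 4 peroxisomal enzymes of the set, Acaa1a, a thiolase, was the most abundant (ENSMUSG00000036138, chromosome 9 from 119339676 to 119350299). It had 245.98, 166.46 and 197.97 TPM in Cd38+/+, 215.55, 224.09 and 223.72 in Cd38+/-, and 192.54 to 214.18 (median 204) in Cd38-/-. Its Cd38-/- libraries were all below the Cd38+/- libraries, with a difference of -0.11 on the log2 scale (limma q = 0.444; two-sided exact permutation test, p = 0.0238). Hsd17b4, the multifunctional hydratase and dehydrogenase for branched and very long chains, had 117.04 to 145.02 TPM with the genotypes overlapping.

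Acox3, an oxidase of branched acyl-CoA, had 40.36, 3.25 and 26.20 TPM in Cd38+/+, 27.74 to 44.94 in Cd38+/- and 23.38 to 35.59 in Cd38-/-. Ehhadh, the other bifunctional enzyme, had 19.89, 7.08 and 15.73 TPM in Cd38+/+, 11.31 to 12.33 in Cd38+/- and 7.36 to 12.32 in Cd38-/-. For both genes Cd38+/+ replicate 2 was the lowest of all 12 libraries. None of the 4 had an unadjusted p under 0.05 in any comparison.

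The mitochondrial and peroxisomal enzymes were then set side by side. The 18 mitochondrial genes were the 5 dehydrogenases, the 5 genes of the hydratase to thiolase steps, Eci1, Decr1, Etfa, Etfb, Etfdh, Cpt2, Slc25a20 and Crat. Cpt1a and Cpt1c, like Eci2, were left out, and with Cpt1a in place of Crat the difference of Cd38+/- from Cd38+/+ was 0.18 in place of 0.14. Mean log2(TPM + 1) of the 18 mitochondrial enzymes was 6.90 to 7.02 in Cd38+/+, 7.06 to 7.11 in Cd38+/- and 6.90 to 7.06 in Cd38-/-. That of the 4 peroxisomal enzymes was 4.86 to 6.22, 5.85 to 6.03 and 5.58 to 5.94. The mitochondrial mean of Cd38+/- exceeded that of Cd38+/+ by 0.14 with no overlap (pooled SD 0.0499). Over all genes the log2 fold change in Cd38+/- was 0.18, which is a median and not a mean. The mitochondrial mean of Cd38-/- exceeded that of Cd38+/+ by 0.05 with overlap. With the trend on length and GC content removed the 2 mitochondrial differences became -0.04 and -0.16. The peroxisomal means of the 3 genotypes overlapped.

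The gap between the compartments, mitochondrial minus peroxisomal, was 0.80, 2.07 and 1.06 in Cd38+/+, 1.10, 1.22 and 1.08 in Cd38+/-, and 1.08 to 1.33 in Cd38-/-. The widest gap was that of Cd38+/+ replicate 2, in which Acox3 and Ehhadh were lowest. With all libraries the gap in Cd38-/- differed from that in Cd38+/+ by -0.10 (pooled SD 0.368), and without Cd38+/+ replicate 2 it was 0.28 wider. Between Cd38-/- and Cd38+/- it differed by 0.08 (pooled SD 0.0979). With all libraries neither difference was larger than the spread. Without Cd38+/+ replicate 2, the remaining Cd38+/+ gaps (0.80 and 1.06) lay below all Cd38-/- gaps, so the size and direction of this comparison rest on 1 library.

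Of the 6 acyl-CoA synthetases, which commit a fatty acid to oxidation or to lipid synthesis, 3 carried nearly all expression. Acsl3, Acsl6 and Acsbg1 made up 98.5% to 99.4% of synthetase TPM in every library. Acsl1, Acsl4 and Acsl5 reached at most 21.57, 7.68 and 19.41 TPM. Acsl3, at the endoplasmic reticulum and lipid droplets, had 1051.43, 1165.30 and 659.91 TPM in Cd38+/+, 1071.40, 1387.96 and 1377.67 in Cd38+/-, and 776.38 to 1213.31 (median 983) in Cd38-/-. Between Cd38-/- and Cd38+/- it differed by -0.37 on the log2 scale (SE 0.142, limma q = 0.277), with the genotypes overlapping.

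Acsl6, which prefers polyunsaturated chains such as docosahexaenoic acid (ENSMUSG00000020333, chromosome 11 from 54303798 to 54364756), had 881.84, 717.18 and 488.79 TPM in Cd38+/+, 976.80, 1059.54 and 1082.61 in Cd38+/-, and 645.47 to 973.21 (median 789) in Cd38-/-. The Cd38+/- libraries were above all others. Cd38+/- differed from Cd38+/+ by 0.62 on the log2 scale (SE 0.207, limma q = 0.193), and Cd38-/- from Cd38+/- by -0.40 (SE 0.131, limma q = 0.231; two-sided exact permutation test, p = 0.0357). Neither was past the threshold.

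Acsl6 was the only one of the genes with a promoter match to the ERR element, the site of estrogen-related receptors, and is shown for that reason. RefSeq promoter windows (GRCm38, 250 bases before to 50 after the start) were at hand for 32 of the 37 genes. The motif TCAAGGTCA was searched on both strands and is in 0.423% of all 32851 windows. The printed stretch is chr11:54303597-54303725 on the plus strand, and the capitals mark the motif, which reads on the strand opposite to the gene and ends 158 bases before that start, one of 3 listed for Acsl6.
Acsl6: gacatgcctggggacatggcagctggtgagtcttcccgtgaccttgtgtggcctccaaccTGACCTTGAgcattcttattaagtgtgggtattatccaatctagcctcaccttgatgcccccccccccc

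The PPAR element, searched on both strands as AGGTCA repeated with any single base between the copies, was in 0.0396% of all windows and in 0 of the 32. A match is a description of these letters, and no match says nothing of the receptors.

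Acsbg1, the bubblegum synthetase for very long chains, had 940.53, 986.21 and 692.98 TPM in Cd38+/+, 978.10 to 1239.52 in Cd38+/- and 827.08 to 1131.40 in Cd38-/-. Summed over Acsl3, Acsl6 and Acsbg1, TPM was 1840 to 2870 in Cd38+/+, 3030 to 3700 in Cd38+/- and 2250 to 3200 in Cd38-/-, so that the Cd38+/- sums lay above all Cd38+/+ sums. The 3 minor synthetases were uneven in Cd38+/+. Acsl5 had 19.41, 17.79 and 3.01 TPM there and 4.90 to 10.01 in the other libraries, and Acsl1 had 3.75, 5.58 and 17.45 there. In Cd38-/-, Acsl1 lay between 8.96 and 12.72 TPM. Acsl4, which prefers arachidonic acid, ran from 2.71 to 7.68 TPM.

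Ppara, the receptor that drives many of these genes in liver, had 18.66, 0.08 and 9.50 TPM in Cd38+/+, 19.78, 14.18 and 17.58 in Cd38+/-, and 8.14 to 16.83 (median 15.1) in Cd38-/-. Its log2 fold changes of 1.57 in Cd38+/- (SE 0.943) and 1.23 in Cd38-/- (SE 0.699; limma q = 0.173) rested on 1 Cd38+/+ library near 0, and the 3 genotypes overlapped. Ppard, the related receptor, had 0.61, 7.93 and 0.08 TPM in Cd38+/+, 3.75, 3.81 and 2.01 in Cd38+/-, and 0.71 to 2.00 in Cd38-/-. In Cd38+/+ replicate 2 Ppara was at its lowest and Ppard at its highest of all 12 libraries.

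The thioesterases release free fatty acids from acyl-CoA, ACOT1 in the cytosol and ACOT2 in mitochondria. Their genes are close paralogs on chromosome 12 (Acot1 from 84009490 to 84018371 and Acot2 from 83987861 to 83993873), so reads may have been split between them and both values are uncertain. Acot1 had 120.60, 118.63 and 133.76 TPM in Cd38+/+, 117.36, 110.61 and 136.14 in Cd38+/-, and 135.57 to 180.93 (median 145) in Cd38-/-. All Cd38-/- libraries were above all Cd38+/+ libraries, with a log2 difference of 0.28 (SE 0.128, limma q = 0.119; two-sided exact permutation test, p = 0.0357). Over 22 alternative fits this difference ran from 0.04 to 0.37. The difference from Cd38+/- was 0.32 (SE 0.115, limma q = 0.259), the largest of the 3 positive values in that comparison.

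Acot2 had 19.90, 15.86 and 13.63 TPM in Cd38+/+, 20.80, 26.74 and 21.02 in Cd38+/-, and 16.86 to 21.91 (median 19.2) in Cd38-/-. Its Cd38+/- libraries were above the Cd38+/+ libraries (log2 fold change 0.46, limma q = 0.332, and 0.13 to 0.59 over 19 alternative fits). Summing both genes lessens the effect of such a split but does not remove it, as TPM is corrected for transcript length. Acot1 plus Acot2 TPM was 134 to 147 in Cd38+/+, 137 to 157 in Cd38+/- and 155 to 198 in Cd38-/-. The sums of Cd38-/- did not overlap with those of Cd38+/+.

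The fatty acid binding proteins carry fatty acids through the cytosol, and both were abundant. Fabp7, the brain form and a marker of radial glia and astrocytes, had 575.61, 560.53 and 404.27 TPM in Cd38+/+, 466.76, 721.29 and 553.93 in Cd38+/-, and 336.92 to 985.34 (median 482) in Cd38-/-. The 985.34 was Cd38-/- replicate 2, and the other 5 Cd38-/- libraries reached 541.83 at most. Fabp5 had 323.13 to 544.31 TPM over all libraries. Genotypes overlapped for both, with log2 fold changes against Cd38+/+ between -0.04 and 0.17.

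Other genes of fatty acid metabolism, from a list of 79, were read in the same fits. None of 72 tested was a DEG in Cd38+/- against Cd38+/+, or in Cd38-/- against Cd38+/-, with 10 higher and 3 lower in the former and 2 higher and 6 lower in the latter at an unadjusted p under 0.05. Over all genes the shares were 9.5% and 3.99% in the former and 6.24% and 5% in the latter. Between Cd38-/- and Cd38+/+, 7 of 73 were DEGs (9.59%, against 8.28% of all genes), 4 higher and 3 lower.

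Among the higher genes, Acad11, for an acyl-CoA dehydrogenase that acts on long chains, had 26.61, 30.12 and 12.51 TPM in Cd38+/+ and 34.36 to 45.25 in the mutant libraries (log2 fold change 0.82, limma q = 0.0470). Acacb, the acetyl-CoA carboxylase whose malonyl-CoA blocks CPT1, had 10.89, 1.61 and 1.82 TPM in Cd38+/+ and 9.25 to 18.49 in the others (q = 0.0427). Nudt7, a peroxisomal CoA diphosphatase, had values of 33.66 and 2.66 TPM in Cd38+/+ replicates 1 and 3 and is listed at 0 in replicate 2, against 24.59 to 31.99 in the others, with a q just under the threshold. For Acacb and Nudt7 the highest Cd38+/+ library lay within or above the mutant range.

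The 3 lower genes did not overlap with Cd38+/+ in either mutant genotype. Acot8, the peroxisomal thioesterase, had 29.55 to 39.69 TPM in Cd38+/+, 18.56 to 28.43 in Cd38+/- and 16.49 to 21.99 in Cd38-/- (log2 fold change -0.77, limma q = 0.0308). Amacr, the racemase of branched acyl-CoA, had 35.73 to 44.48, 20.61 to 25.85 and 22.30 to 29.89 TPM (-0.60, q = 0.0433). Rxrb, a retinoid X receptor and partner of PPARs, had 63.26 to 96.93, 39.22 to 48.87 and 38.77 to 49.93 TPM (-0.75, q = 0.0235).

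The calls of the 6 genes named here were each lost in 4 to 8 of the 9 fits that left out 1 library, and leaving out Cd38-/- replicate 1, 2, 5 or 6 ended all 6 of them. Among the 36 tested genes themselves, 6 were DEGs in Cd38-/- without Cd38+/+ replicate 1 (Acadl, Acadsb, Acox3, Etfdh and Ppara higher, Eci1 lower) and 5 without Cd38+/+ replicate 3 (Acadl, Acsl1, Echs1 and Etfa higher, Acsl5 lower), when 15.5% and 26.5% of all genes were called. Without Cd38+/+ replicate 2 it was Ehhadh alone, lower, when 16.5% of all genes were called. Without any one Cd38-/- library it was 0, when 0.633% to 6.79% of all genes were called.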

How the data were processed

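The deposited values are TPM, 1 column per library, for 20614 genes. Per the paper and the submitters' processing notes, the authors trimmed reads with Trim Galore 0.6.4, mapped them to mm10 with STAR 2.7.1a and estimated expression with RSEM 1.2.28. DESeq2 1.36.0 is also listed by them, and the annotation is not given in the sources used here. All 12 columns were used.

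Genes whose mean TPM exceeded 5 in one or both genotypes compared were fitted on log2(TPM + 1), with a pseudocount of 1, using limma 3.58.1 (eBayes with a trend) under R 4.3.3. Fold changes on this scale understate those of low genes. A DEG had a Storey q under 0.05 over all genes tested and at least a 1.2-fold change. Only compared genotypes entered a fit. Single genes were also compared with exact permutation tests, which cannot go below 0.1 with 3 against 3. Libraries of a genotype are taken as separate animals, which the labels do not state. Otherwise p measures the spread between libraries only.

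The members, role groups, pathway list and markers were chosen with earlier results of these data known. Full values are given for DEGs, for members whose Cd38+/+ libraries do not overlap with those of a mutant genotype, and for the most abundant member of each role. Of the other pathway genes called, 1 is not reported here by itself. Further genes with values were named after these were seen. Positions are those of GENCODE vM21. Fits were tested on simulated data. Alternatives were pseudocounts, filters, adjustments, scalings, weights (statmod 1.5.0), a replicate block, removal of length and GC trends (splines of 4 degrees of freedom) and leaving out each library. Figures were drawn with matplotlib 3.10.9.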

Additional observations from a re-analysis of the deposited data

Results flagged for a closer look

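Over the 37 genes and the 4 set means in Cd38-/-, the genotype with 6 libraries, 41 groups of values were examined for a library standing apart by Dixon's criterion at 95%, which chance meets in about 1 of every 20. There were 2 such values. Eci1 was lowest in Cd38-/- replicate 1, at 237.1 TPM against 321.22 to 354.47 TPM in the other 5 libraries. Acsl1 was lowest in Cd38-/- replicate 4, at 8.96 TPM against 11.68 to 12.72 TPM. Groups of 3 libraries were not examined.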

How the results depend on the processing

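Values below are given by setting. The number of DEGs among the 36 tested genes was 0 in Cd38+/- against Cd38+/+ and became 2 with all 12 libraries in 1 fit. In Cd38-/- against Cd38+/+ it was 1 and became 0 with Benjamini-Hochberg adjustment, eBayes without trend, library quality weights, median-ratio scaling and the replicate block, alone or with the length and GC trend removed, and 0 to 6 with 1 library left out. In Cd38-/- against Cd38+/- it was 0 and became 12 with library quality weights, a fit that called 27% of all genes. These weights did not converge in that comparison, nor in Cd38+/- against Cd38+/+. Over all genes, the 970 DEGs of Cd38-/- against Cd38+/+ became 326 with Benjamini-Hochberg adjustment, 1 with quality weights, 2 with the replicate block, 1822 with all 12 libraries, 2283 without the filter and 74 to 3119 with 1 library left out, and the 0 of Cd38+/- became 1464 with all 12 libraries and 663 without the filter. Over the other pathway genes the count in Cd38+/- was 0 and became 2 without the filter and 10 with all 12 libraries in 1 fit. In Cd38-/- against Cd38+/+ it was 7 and became 4 with TPM of at least 1 in every library, 1 with Benjamini-Hochberg adjustment, 0 with quality weights and with the replicate block (alone or with the trend removed), 12 with all 12 libraries in 1 fit and 0 to 15 with 1 library left out. In Cd38-/- against Cd38+/- it was 0, and 16 with quality weights.

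Median-ratio scaling moved the median log2 fold change of all genes from 0.18 to 0.04 in Cd38+/- and from 0.15 to 0.03 in Cd38-/-. The mean of all members then differed by 0.12 in Cd38+/- and -0.0043 in Cd38-/-, and that of the mitochondrial enzymes by 0.0018 and -0.0736. With the length and GC trend removed these were 0.0388 and -0.11, and -0.0414 and -0.16. Members had a median transcript length of 944 bases against 1390 over expressed genes. The number of negative members, 10 in Cd38+/- and 14 in Cd38-/-, became 18 (median-ratio) and 20 (trend removed, with or without the block) in Cd38+/-, and 20 (median-ratio), 25 (trend removed) and 27 (with the block) in Cd38-/-. Over all genes the negative share moved from 35.6% to 46.6% and 54.5% in Cd38+/-. In Cd38-/- it moved from 35.7% to 46.7%, 56.5% and 56.3%. The median level over the members of each library, in place of the mean, differed by 0.00096 between Cd38-/- and Cd38+/-. It is not the median of the single-gene differences, which was -0.14.

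Relative to the astrocyte markers, an alternative added after the data were seen, as was the count of negative members, the differences of Cd38+/- from Cd38+/+, of Cd38-/- from Cd38+/+ and of Cd38-/- from Cd38+/- were -0.34, -0.12 and 0.23 for all members and -0.46, -0.18 and 0.28 for the mitochondrial enzymes. For the peroxisomal enzymes the first was -0.28 and the last 0.20. The markers include Gfap and Aqp4, both called between Cd38-/- and Cd38+/+, and no other choice of markers was tried. With 1 library left out, the peroxisomal difference of Cd38-/- from Cd38+/+ ran from -0.25 to 0.43, and the compartment gap from -0.35 to 0.28, where -0.25 and 0.28 are without Cd38+/+ replicate 2. Where not stated otherwise, the cause was not tested.

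Same-numbered libraries of different genotypes deviated together in some pairs and apart in others (r from -0.307 to 0.454). The labels do not say whether replicate numbers pair libraries, and these values cannot settle it. Fits with a replicate block are given as alternatives only. In such a fit, Cd38-/- libraries without a same-numbered partner add nothing to the genotype difference.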
